A study of Mus musculus with 6 samples.

Results

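Villus tip telocytes are flat mesenchymal cells that lie beneath the epithelium of the upper villus. They are known by the PDGF receptor Pdgfra, the transcription factor Foxl1 and the R-spondin receptor Lgr5, which is better known as the mark of crypt stem cells, and they send BMP and noncanonical WNT signals to the epithelium above them. BMP signals favor the differentiation of epithelial cells along the villus, whereas trophocytes near the crypt secrete BMP antagonists such as Grem1 and R-spondins that maintain stem cells. These cells were sought in 4 single-cell libraries of the small intestine by a gate on raw UMIs, which count captured RNA molecules. A barcode was kept if it held 2500 to 40000 UMIs from 1000 to 7500 genes, with under 10% of its UMIs mitochondrial. A gated cell had at least 3 UMIs of Pdgfra and of the ligand Bmp5, at least 1 UMI of at least 2 among Lgr5, Bmp7, Bmp3, Foxl1 and Wnt5a, and no UMI of Prox1, Ptprc and Myh11, which mark lymphatic endothelium, leukocytes and smooth muscle. The members were thus chosen by the measured UMIs of these 10 genes. The gate held 387 of the 76832 barcodes kept in the small intestine (0.504%). All 6 libraries of the series together kept 102534 barcodes. The 387 gated cells were compared with the 54887 other kept barcodes of the small intestine that had at least 1 Pdgfra UMI.

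Flare-TSLP mice on a C57BL/6 background carry the red fluorescent protein tdTomato behind an IRES in the Tslp gene. Live cells that were tdTomato+ were taken by sorting from their lamina propria, so that all libraries shared the reporter allele and the sort. The study used female and male mice of 8 to 12 weeks. Proximal libraries came from the proximal jejunum and distal libraries from the distal ileum, with 2 libraries each, and 1 library each came from the cecum and the large intestine. Several biological samples were used for each tissue, and each library pooled cells under 3 hashtags (barcoded antibodies). No source used here pairs a hashtag with a mouse, so each library was counted as 1 sample and p-values measure only the spread between libraries.

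Lgr5, the gene by which the cell type is known, was detected at 3 or more UMIs in a minority of the gated cells. Lgr5 (GRCm39 chromosome 10, 115286216 to 115423685, minus strand) had 3 or more UMIs in 92 of the 387 cells (23.8%), 1 or 2 UMIs in 33 and none in 262. Of the 92 cells with 3 or more, 57 had at least 10 Lgr5 UMIs, with a median of 12 and a maximum of 110. The other genes that could complete the gate were detected in different numbers of cells, with Wnt5a in 370, Bmp7 in 214, Foxl1 in 208 and Bmp3 in 38. Where 3 of the 5 completing genes were required, of which Lgr5 is 1, the cells with 3 or more Lgr5 UMIs made up 62.5% of 56 and 27.9% of 43 cells proximally and 74.1% of 27 and 28.6% of 14 distally (replicates 1 and 2). The gated cells are therefore called by their gate, and those with at least 3 Lgr5 UMIs (Lgr5 3+) and those with none (Lgr5 0) are given apart throughout.

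**Figure D1:**
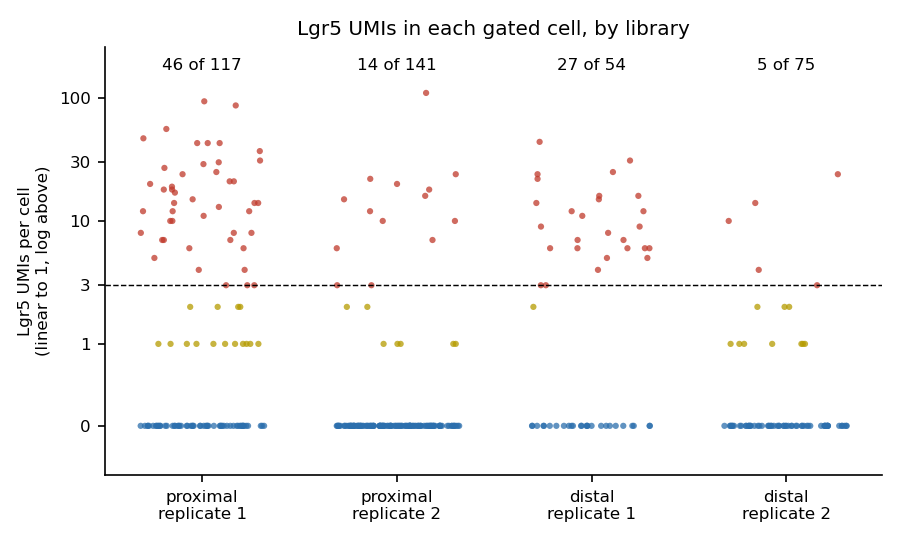
Lgr5 UMIs in each of the 387 gated cells, with 1 point per cell and 1 column per library. The vertical axis is linear to 1 UMI and logarithmic above, the dashed line marks 3 UMIs, and the numbers on top give the Lgr5 3+ cells of all gated cells, from 5 of 75 in distal replicate 2 to 46 of 117 in proximal replicate 1.

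The share of Lgr5 3+ cells differed more between libraries of a region than between regions. It was 46 of 117 gated cells in proximal replicate 1 (39.3%, 95% exact binomial interval 30.4 to 48.8), 14 of 141 in proximal replicate 2 (9.93%, 5.54 to 16.1), 27 of 54 in distal replicate 1 (50%, 36.1 to 63.9) and 5 of 75 in distal replicate 2 (6.67%, 2.20 to 14.9). Both replicate 1 libraries thus held a larger share than both replicate 2 libraries. Their intervals do not overlap, but they cover counting error only and not the spread between the hashtags pooled in a library. After each cell was thinned to 2500 UMIs before the gate the order held, with a narrower gap, at 43.1% of 65 gated cells in proximal replicate 1, 25.9% of 27 in proximal replicate 2, 48.1% of 27 in distal replicate 1 and 13.3% of 15 in distal replicate 2. The median gated cell had 14701 UMIs in proximal replicate 2 and 7698 to 10465 in the others. Between regions the mean share was 24.6% ± 20.8 proximally and 28.3% ± 30.6 distally (SD, n = 2 libraries each), a difference of -3.71 percentage points (exact permutation test, two-sided p = 1.00). What differed between the replicates was not tested.

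Gated cells as a whole held a larger share of both proximal libraries. They made up 0.677% (0.560 to 0.811) of the kept barcodes in proximal replicate 1 and 0.787% (0.663 to 0.927) in proximal replicate 2. The distal shares were 0.254% (0.191 to 0.331) in replicate 1 and 0.369% (0.290 to 0.462) in replicate 2. Neither distal library reached a proximal one, with means of 0.732% ± 0.0775 and 0.311% ± 0.0816 (SD, n = 2 each). The difference of 0.421 percentage points gave an exact permutation p of 0.333, two-sided, the smallest that 2 libraries against 2 allow. Cells were sorted on the reporter, so these are shares of the kept barcodes of that sort and not of the tissue. When every kept barcode was thinned to 2500 UMIs before the gate, the shares were 0.376%, 0.151%, 0.127% and 0.0738% in the same order. The thinned shares kept proximal above distal within each replicate number, but proximal replicate 2 then lay near distal replicate 1.

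**Figure D2:**
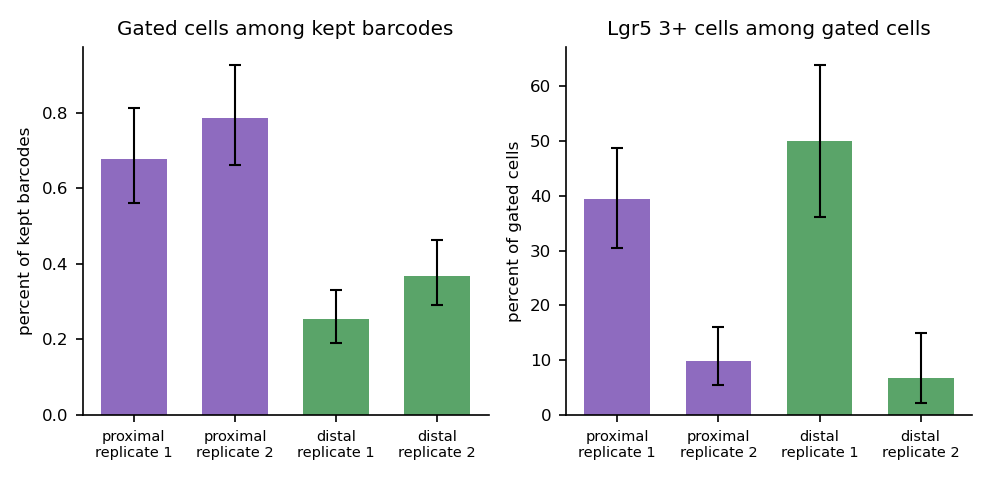
Left, gated cells as a percent of kept barcodes in each library, and right, Lgr5 3+ cells as a percent of gated cells, with exact 95% binomial intervals that cover counting error only. The left bars are higher in both proximal libraries (0.677% and 0.787%) than in both distal libraries, and the right bars are higher in both replicate 1 libraries (39.3% and 50%).

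The spread of gated cells over hashtags departed most from that of the other Pdgfra+ cells in distal replicate 1, and it was not tested. In proximal replicate 1 the hashtags held 34.7%, 46.3% and 18.9% of the gated cells and 35.6%, 40.5% and 24.0% of the other cells. In distal replicate 1, 33 of the 43 gated cells with a single hashtag carried the same one (76.7%), which held 33.5% of the other Pdgfra+ cells, and 20 of its 24 Lgr5 3+ cells with a single hashtag were among them. In distal replicate 2 a hashtag held 22.0% of the gated and 38.5% of the other cells, and in proximal replicate 2 a hashtag held 31.9% of the gated and 41.7% of the other cells. No hashtag held more than 46.3% of the gated cells in the libraries other than distal replicate 1. Barcodes with several hashtags were 12.1% of the gated cells, and Scrublet, which predicts doublets, marked 13.4% of them against 7.19% to 11.3% of all kept barcodes.

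The kept barcodes had median depths of 7726 to 9058.5 UMIs per small intestinal library, from 17282 to 21299 barcodes. Between 86 and 118 kept barcodes were shared by each pair of small intestinal libraries (at most 0.590% of the smaller library), and none was gated in both. Gated cells had median depths of 8223, 14701, 7697.5 and 10465 UMIs in proximal replicates 1 and 2 and distal replicates 1 and 2. Lgr5 3+ cells were shallower than Lgr5 0 cells in every library, by medians of 6514 against 9080, 8418.5 against 14853, 7164 against 8898.5 and 5703 against 10601 UMIs. Levels below are counts per 1000000 UMIs summed over the cells of a library (CPM), listed in the order proximal replicate 1, proximal replicate 2, distal replicate 1, distal replicate 2. A single UMI is worth 2.85, 5.95, 4.88 and 27.4 CPM in the Lgr5 3+ sums, so that the 5 Lgr5 3+ cells of distal replicate 2 give coarse values, and a level of 0 there allows up to 82.2 CPM.

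The genes of the gate set the cells apart by construction, and their levels are given as a description. Pdgfra (chromosome 5, 75311994 to 75358876, plus strand) was at 1856, 1660.2, 1856 and 1837 CPM in Lgr5 3+ and 1232, 684, 1083 and 602 CPM in Lgr5 0 cells, and at 578, 484, 499 and 475 CPM in the other Pdgfra+ cells. Bmp5 (chromosome 9, 75682638 to 75807592, plus strand) was at 2803, 2755, 2344 and 3728 CPM in Lgr5 3+ cells and 1414, 783, 1034 and 909.6 CPM in Lgr5 0 cells. Both genes were higher in the Lgr5 3+ cells of every library. Each gated cell had passed the same threshold in UMIs, which is a higher level in CPM in the shallower Lgr5 3+ cells. What part the gate and depth had in this order was not tested. Lgr5 itself was at 2755, 1642, 1621 and 1508 CPM in Lgr5 3+ cells and 2.99, 5.92, 0.83 and 2.73 CPM in the other Pdgfra+ cells. Wnt5a, a noncanonical WNT, was at 898, 809, 1157 and 521 CPM in Lgr5 3+ and 348, 167, 355 and 173 CPM in Lgr5 0 cells. Bmp7 was at 123, 173, 195 and 274 CPM in Lgr5 3+ and 69.2, 47.3, 102 and 49.6 CPM in Lgr5 0 cells. Foxl1 differed less, at 91.3, 53.6, 83.0 and 82.2 CPM in Lgr5 3+ and 60.6, 57.7, 41.5 and 76.5 CPM in Lgr5 0 cells, and it was below 3 CPM in the other cells of every library. A Foxl1 UMI was present in 38 of 92 Lgr5 3+ cells (41.3%) and 163 of 262 Lgr5 0 cells (62.2%). A gated cell without Lgr5 needed 2 of Bmp7, Bmp3, Foxl1 and Wnt5a, so the gate ties these genes to the Lgr5 class. Near the thresholds, the 49 gated cells with exactly 3 Pdgfra UMIs had 20.5 CPM of Lgr5, and the 27 barcodes that missed the gate with 2 had 25.9 CPM. The 30 gated cells with exactly 3 Bmp5 UMIs had 11.6 CPM of Lgr5 against 6.91 CPM in the 24 barcodes with 2. The 247 gated cells with exactly 2 of the 5 completing genes had 114 CPM of Lgr5, against 6.12 CPM in the 1701 barcodes with 1 and 864 CPM in the 140 gated cells with 3 or more. Since Lgr5 is itself 1 of the 5, that order is set by the gate. Cells at the edges for Pdgfra and Bmp5 held little Lgr5.

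Outside the gate, 82 of the other Pdgfra+ barcodes also had at least 3 Lgr5 UMIs. Of these, 69 had a UMI of Prox1, Ptprc or Myh11, 40 had fewer than 3 UMIs of Bmp5, 44 had fewer than 2 of the 5 completing genes and 29 fewer than 3 UMIs of Pdgfra. Their Sox6 level was 1529.7, 296, 1109.7 and 219.6 CPM and their Lgr5 level 1685, 891, 754 and 417 CPM. The gate therefore held 92 of 174 Pdgfra+ barcodes with at least 3 Lgr5 UMIs. Kept barcodes without a Pdgfra UMI were not counted here.

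For tests, UMIs were summed per library and class and fitted over all genes with edgeR. A gene that varied with the gate genes from cell to cell had to move with the gate, so these tests describe what accompanied it. Against the other Pdgfra+ cells, 1067 of 17899 genes tested were higher in gated cells (5.96%) and 1572 lower (8.78%). By limma-voom the calls were 1509 higher and 1090 lower, and the share of higher among all calls was 40.4% by edgeR and 58.1% by limma-voom. Within the gate, 484 of 5712 genes tested were higher in Lgr5 3+ than in Lgr5 0 cells (8.47%) and 438 lower (7.67%). A gene could pass the filter on low counts there through the sums of a single class. Among others, Fgf7, Fgf9, Il1rl1, Kctd8, Ptgs2, Wnt5b and Inhba needed their Lgr5 3+ sums to pass it. Fgf10, Itga8, Unc5c, Dnmt3l, Lrat, Mmp10, Dkk2, Il33, Ccl11 and Igf1 needed their Lgr5 0 sums. The numbers called within the gate thus follow in part from the filter. The median of all genes tested was -0.05 on the log2 scale in the first comparison and -0.03 in the second, and the medians of gene lists below are set beside these.

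Telocyte genes that had no part in the gate were mostly higher in gated cells. Of the 14 genes listed, 9 were higher, Postn was lower and Gli1, Edn3, Frzb and Plat did not pass the test (median log2 change 1.34). Sox6 (chromosome 7, 115070106 to 115638860, minus strand), a transcription factor, was at 1910.3, 807, 1265 and 401 CPM in gated cells and 47.5, 30.5, 11.6 and 22.0 CPM in the others (log2 fold change 5.11, SE 0.34, edgeR adjusted p = 5.99e-06). The neuregulin Nrg1 (chromosome 8, 32303906 to 33374825, minus strand), a growth factor that binds ErbB receptors on the epithelium, was at 3378, 1073, 2622 and 690.5 CPM against 61.8, 75.6, 20.8 and 66.2 CPM (log2 fold change 4.84, SE 0.51, edgeR adjusted p = 6.20e-05). For both genes every gated library lay above every other sum, and the replicate 1 libraries, which held more Lgr5 3+ cells, lay highest. Procr, which encodes the surface receptor CD201, was at 95.5, 67.7, 141 and 40.7 CPM against 8.94, 11.8, 6.53 and 12 CPM (log2 fold change 2.91, SE 0.31, edgeR adjusted p = 6.64e-05). Agt (angiotensinogen) had a log2 fold change of 2.59, and the winged helix factors Foxf2 and Foxf1, targets of Hedgehog signaling, had 1.45 and 1.24. F3, the tissue factor, rose by 1.56 and Cd9 by 0.68 on the same scale, but neither call held without proximal replicate 1 or without distal replicate 1 (edgeR adjusted p = 0.0640 and 0.0713 for F3, 0.122 and 0.163 for Cd9).

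Within the gate, 7 of the 11 telocyte genes tested were higher in Lgr5 3+ cells, 1 lower and 3 not called (median log2 change 1.06). Nrg1 was at 7129, 6557, 5157 and 8114 CPM in Lgr5 3+ cells and 1199, 578, 709.6 and 407 CPM in Lgr5 0 cells (log2 fold change 3.35, SE 0.27, edgeR adjusted p = 6.73e-05). Sox6 was at 2649, 3076, 1851 and 1809 CPM and 1367, 571, 800.2 and 315 CPM (log2 fold change 1.8, SE 0.27, edgeR adjusted p = 0.00113). The classes did not overlap for either gene, and the Lgr5 0 cells still lay far above the other Pdgfra+ cells. Sox6 had at least 1 UMI in 90 of the 92 Lgr5 3+ cells and 88 of the 262 Lgr5 0 cells, against 4.53% of the other Pdgfra+ cells and 1.24% of leukocyte barcodes (at least 2 UMIs of Ptprc), which should lack it and had median depths of 5282 to 8504 UMIs per library. At 2500 UMIs per cell these shares were 93.5%, 28.6%, 1.95% and 0.286%. Lgr5 0 cells were themselves mixed for Sox6, with 73 cells at 3 or more UMIs, 15 at 1 or 2 and 174 at 0. When at least 3 completing genes were required, Sox6 no longer differed by the test between the Lgr5 classes (log2 fold change 0.36, edgeR adjusted p = 0.381), and neither did F3 (0.25, 0.777), Fst (0.24, 0.671) or Nrg2 (0.57, 0.362).

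The genes with the highest fitted changes were nearly silent in other Pdgfra+ cells. Il1rl1 (chromosome 1, 40468730 to 40504575, plus strand), which encodes ST2, the receptor of the alarmin IL-33, was at 528, 57.7, 690.2 and 72.7 CPM in gated cells and 1.45, 1.96, 0.605 and 1.39 CPM in the others (log2 fold change 7.23, SE 0.78, edgeR adjusted p = 6.64e-05). The replicate 1 libraries lay far above the replicate 2 libraries, and all 4 lay above the others. The naming rule required the same direction in every library. In Lgr5 3+ cells Il1rl1 reached 1243, 583, 1377 and 1233 CPM against 106, 12.5, 132 and 17.4 CPM in Lgr5 0 cells (log2 fold change 4.53, SE 0.42, edgeR adjusted p = 0.000107). An Il1rl1 UMI was present in 84 of 92 Lgr5 3+ cells and 27 of 262 Lgr5 0 cells. Ptprr (chromosome 10, 115854088 to 116110837, plus strand), a receptor-type tyrosine phosphatase, was at 2763, 2077, 2066 and 2275 CPM in Lgr5 3+ and 426, 114, 423 and 141 CPM in Lgr5 0 cells. Ptprr in other Pdgfra+ cells was at 13.8, 9.13, 4.36 and 10.3 CPM (log2 fold change 5.92, SE 0.48, edgeR adjusted p = 1.29e-05 for gated against others). These levels fell in the same order in every library. Kctd8, an auxiliary subunit of GABA-B receptors, was at 548, 833, 283 and 603 CPM in Lgr5 3+ and 27.7, 22.9, 45.3 and 8.05 CPM in Lgr5 0 cells. Kctd8 in other Pdgfra+ cells was at 1.36, 0.526, 0.125 and 0.289 CPM (log2 fold change 7.71, SE 0.41, edgeR adjusted p = 2.23e-06 for gated against others).

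Among other leading genes of gated cells, Adamts18, Tmem132d and Edar changed less within the gate than against the other cells. Adamts18, a secreted metalloprotease, was at 257, 357, 269 and 27.4 CPM in Lgr5 3+ and 178, 80.0, 121 and 53.7 CPM in Lgr5 0 cells. Adamts18 in other Pdgfra+ cells was at 1.38, 1.25, 0.817 and 0.929 CPM. Its change in gated cells against others (log2 fold change 6.76, SE 0.27, edgeR adjusted p = 4.14e-07) was far larger than that within the gate (log2 fold change 1.22, SE 0.32, edgeR adjusted p = 0.0221), and the classes within the gate overlapped. The call within the gate was lost without proximal replicate 2 (edgeR adjusted p = 0.110), without distal replicate 1 (0.0916), after subtraction of free RNA (0.0513) and without barcodes of several hashtags (0.151), and by DESeq2 (adjusted p = 0.107). Tmem132d was at 104, 50.9, 37.9 and 5.51 CPM against 1.19, 0.770, 0.262 and 0.312 CPM (log2 fold change 6.02, SE 0.37, edgeR adjusted p = 4.45e-06) and gave no call within the gate (log2 fold change 0.18, edgeR adjusted p = 0.850). Edar, the ectodysplasin receptor, rose by 6.52 in gated cells. Its change within the gate missed the threshold (log2 fold change 1.79, SE 0.61, edgeR adjusted p = 0.0768) but passed it without predicted doublets (1.88, edgeR adjusted p = 0.0290), with no filter on low counts or without library in the model. The other leaders among gated cells by the naming rule were Cdhr17, Adra2c, Nalf1, Insc, Elovl7 and Rarres1, with log2 fold changes from 5.76 to 7.67. Cdhr17 (6.63) and Nalf1 (4.61) were also among the genes that differed most within the gate.

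**Figure D3:**
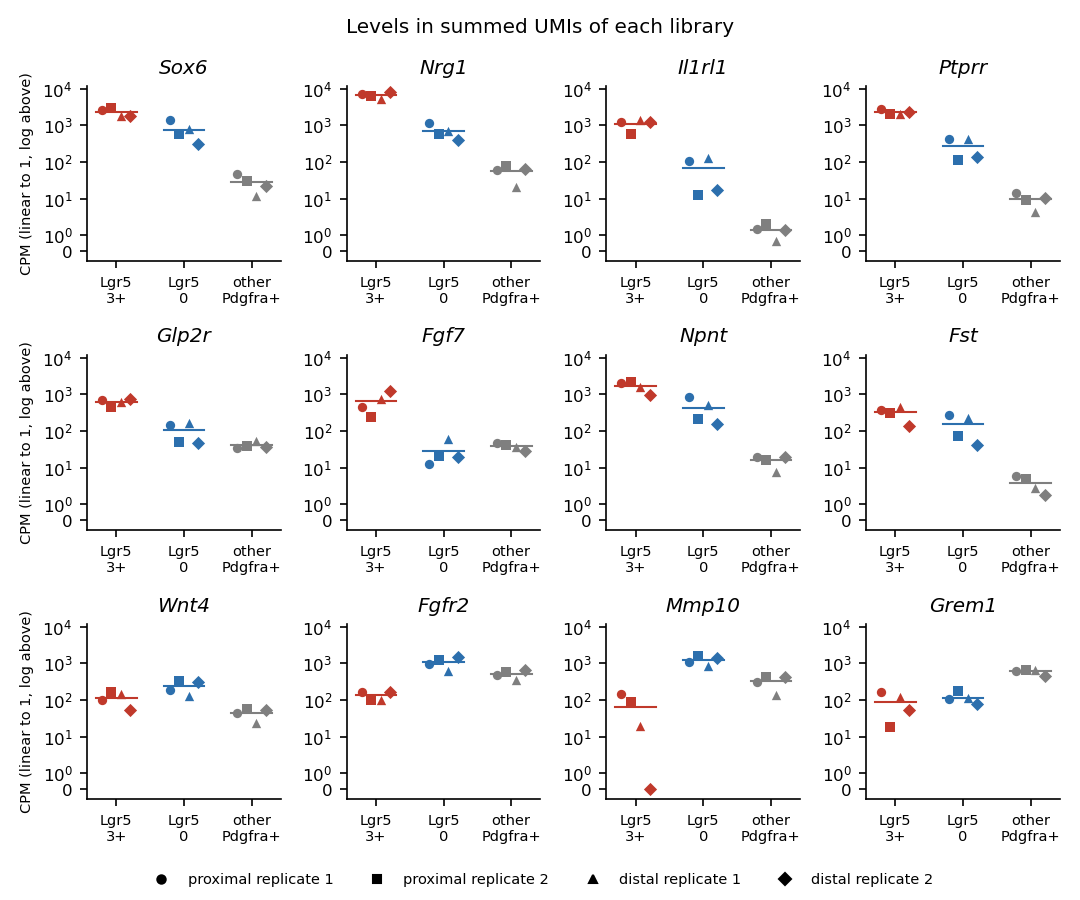
Levels of 12 genes in Lgr5 3+ gated, Lgr5 0 gated and other Pdgfra+ cells, with 1 point per library and the mean of 4 libraries as a line. The axis is in CPM, linear to 1 and logarithmic above. Sox6, Nrg1, Il1rl1, Ptprr and Npnt fall stepwise from left to right, Fgf7 and Glp2r are highest in Lgr5 3+ cells, Fgfr2 and Mmp10 are highest in Lgr5 0 cells, and Grem1 is highest in the other cells.

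A further set of genes was far higher in the Lgr5 0 cells of the gate than in the Lgr5 3+ cells. Fgfr2, a receptor of fibroblast growth factors, was at 165, 101, 103 and 164 CPM in Lgr5 3+ and 976, 1216, 611 and 1466 CPM in Lgr5 0 cells (log2 fold change -2.86, SE 0.24, edgeR adjusted p = 7.30e-05). Fgfr2 in other Pdgfra+ cells was at 495, 578, 346 and 662 CPM. Mmp10, a matrix metalloprotease, was at 145, 89.3, 19.5 and 0 CPM against 1102, 1599, 872 and 1436 CPM (log2 fold change -3.99, SE 0.42, edgeR adjusted p = 0.000198), with 308, 413, 139 and 425 CPM in the others. Fgf10, a ligand of epithelial FGF receptors, was at 5.70, 11.9, 9.77 and 0 CPM against 106, 178, 83.0 and 217 CPM (log2 fold change -3.84, SE 0.40, edgeR adjusted p = 0.000194). The Lgr5 3+ cells lay below the Lgr5 0 cells in all 4 libraries for each of them. For Mmp10, which the naming rule lists, this order was set by that rule. The integrin subunit Itga8 was at 8.55, 5.95, 4.88 and 0 against 219.7, 174, 67.9 and 423 CPM (log2 fold change -4.66). Unc5c, a netrin receptor, was at 22.8, 0, 0 and 0 against 187, 327, 71.7 and 499 CPM (log2 fold change -4.28). Dnmt3l had no UMI in any Lgr5 3+ sum and 38.1, 36.9, 34.0 and 57.7 CPM in Lgr5 0 cells, levels under the 82.2 CPM that a count of 0 allows in distal replicate 2. Of the other genes the naming rule lists here, Adcy5, Slc7a11, Rarb, Slc16a12, Pcdh19, Mfap3l and Abca9 had 3 UMIs or fewer over all Lgr5 3+ cells, and Sntg1 had 26.

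Of the 10 BMP-family ligands tested outside the gate, 5 were higher than in other Pdgfra+ cells, Gdf10 was lower and 4 were not called (median log2 change 0.97). Of the 5, Bmp2 and Bmp4 are BMPs, and the others encode activin subunits and Gdf15. Within the gate 4 of the 10 passed the filter on low counts, and all 4 were higher in Lgr5 3+ cells (median 2.04). Of these, Inhba passed that filter only with its Lgr5 3+ sums. Bmp2 was at 382, 182, 448 and 123 CPM in gated and 82.6, 69.1, 112 and 81.4 CPM in other cells (log2 fold change 1.45, SE 0.20, edgeR adjusted p = 0.000466). Within the gate it was at 605, 637, 713 and 932 CPM in Lgr5 3+ against 239, 123, 242 and 93.9 CPM in Lgr5 0 cells (log2 fold change 2.13, SE 0.28, edgeR adjusted p = 0.000573). Every library showed both differences, and Lgr5 0 cells were also above the others (log2 fold change 0.77). Inhba, which encodes the activin A subunit, was at 248, 196, 391 and 849.7 CPM in Lgr5 3+ and 39.8, 21.8, 67.9 and 17.4 CPM in Lgr5 0 cells. Inhba in other Pdgfra+ cells was at 6.42, 9.58, 4.16 and 7.71 CPM (log2 fold change 3.52, SE 0.45, edgeR adjusted p = 0.000224 for gated against others, log2 fold change 3.41, SE 0.39, edgeR adjusted p = 0.000293 within the gate). Bmp6 was at 733, 631, 669 and 822 CPM against 218, 128, 253 and 184 CPM within the gate (log2 fold change 1.95, SE 0.21, edgeR adjusted p = 0.000213). Gated and other cells did not differ by the test (log2 fold change 0.91, edgeR adjusted p = 0.0553), but did without proximal replicate 2 (1.21, edgeR adjusted p = 0.00484) or distal replicate 2 (1.17, edgeR adjusted p = 0.00351). Bmp4 rose least, by 0.87 in gated cells and 0.72 within the gate, where the call was lost without proximal replicate 1 or distal replicate 1 (edgeR adjusted p = 0.0993 and 0.0962).

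BMP antagonists and modulators moved both ways. Of 14 tested, Fst and Twsg1 were higher in gated cells and 7 were lower (median log2 change -0.93). Follistatin, encoded by Fst (chromosome 13, 114588731 to 114595521, minus strand) and known to bind activins and some BMPs, was at 292, 113, 335 and 38.5 CPM in gated and 5.71, 4.97, 2.72 and 1.8 CPM in other cells (log2 fold change 5.31, SE 0.35, edgeR adjusted p = 5.99e-06). It was higher in every gated library. Within the gate it stood at 382, 309, 459 and 137 CPM in Lgr5 3+ and 266, 71.2, 226 and 40.2 CPM in Lgr5 0 cells (log2 fold change 1.30, SE 0.28, edgeR adjusted p = 0.00793), with overlapping classes. Twsg1, which binds BMPs together with chordin, rose by 1.63 in gated cells and by 1.33 in Lgr5 3+ over Lgr5 0 cells. Grem1, the antagonist typical of trophocytes, was at 117, 153, 114 and 148 CPM in gated and 639.5, 668, 661 and 459 CPM in other Pdgfra+ cells (log2 fold change -2.30, SE 0.16, edgeR adjusted p = 6.29e-06). Its level did not differ by the test within the gate (log2 fold change -0.31, edgeR adjusted p = 0.746). Chrdl1, Fstl3, Chrd, Fstl1 and Bmp1, a protease that cleaves chordin, also fell. Nbl1 was lower in Lgr5 3+ than in Lgr5 0 cells (log2 fold change -1.42, SE 0.34, edgeR adjusted p = 0.0133), a call lost without proximal replicate 1 (edgeR adjusted p = 0.0562).

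Several genes that BMP signaling induces were higher in Lgr5 3+ cells too. Of the 16 receptors, SMADs and targets tested, 6 were higher and 2 lower in gated cells (median log2 change 0.14), and 7 of 12 were higher in Lgr5 3+ cells with none lower (median 1.04). Id1, a direct BMP target, was at 448, 994, 752 and 356 CPM in Lgr5 3+ and 142, 46.7, 125 and 79.2 CPM in Lgr5 0 cells. Id1 in other Pdgfra+ cells was at 42.8, 34.2, 22.9 and 48.1 CPM (log2 fold change 2.81, SE 0.41, edgeR adjusted p = 0.000927 within the gate). The inhibitory SMAD gene Smad6 was at 408, 345, 332 and 548 CPM in Lgr5 3+ and 144, 87.3, 113 and 117 CPM in Lgr5 0 cells. Smad6 in other Pdgfra+ cells was at 31.7, 38.3, 21.4 and 42.6 CPM (log2 fold change 1.84, SE 0.20, edgeR adjusted p = 0.000228 within the gate). Both fell in the same order in every library. Blood endothelial markers summed to 630.4 to 3184 CPM in Lgr5 3+ and 81.5 to 353 CPM in Lgr5 0 cells and were highest, like Id1, in the Lgr5 3+ cells of proximal replicate 2, and their part in these values was not tested. Id2 and Id3 rose within the gate by 2.11 and 1.04, Smad7 by 1.34, and the type 2 receptor Bmpr2 by 1.04. Without proximal replicate 2 the edgeR adjusted p was 0.0833 for Id3 and 0.0589 for Smad7, and without distal replicate 1 it was 0.121 and 0.0888. The receptors Bmpr1a, Acvr1 and Acvr2a and the transducers Smad1 and Smad5 gave no call there.

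WNT ligands moved both ways, and 9 WNT modulators and targets fell. Of 8 WNT ligands tested outside the gate, Wnt4 and Wnt5b were higher in gated cells and Wnt2, Wnt9a and Wnt2b lower. Wnt4 (chromosome 4, 137004373 to 137027037, plus strand) was at 147, 304, 137 and 266 CPM in gated and 45.2, 55.5, 23.3 and 53.6 CPM in other cells (log2 fold change 2.12, SE 0.14, edgeR adjusted p = 6.18e-06). Within the gate it gave no call, with 103, 161, 146 and 54.8 CPM in Lgr5 3+ and 190.3, 323, 132 and 305 CPM in Lgr5 0 cells (log2 fold change -0.75, edgeR adjusted p = 0.122). Wnt4 was lower in Lgr5 3+ cells by the test without distal replicate 1 (-1.10, edgeR adjusted p = 0.0455). Wnt5b, like Wnt5a a noncanonical ligand, was at 79.8, 101, 117 and 274 CPM in Lgr5 3+ and 27.7, 36.4, 37.7 and 40.2 CPM in Lgr5 0 cells. Wnt5b in other Pdgfra+ cells was at 22.7, 20.1, 15.4 and 14.4 CPM (log2 fold change 1.83, SE 0.28, edgeR adjusted p = 0.00132 within the gate). Among WNT modulators and targets 9 of 19 were lower in gated cells and Wif1, with 9 UMIs, was higher (median log2 change -0.75). The R-spondin Rspo3, which sustains stem cells, was at 35.2, 42.3, 21.0 and 44.0 CPM against 145, 155, 84.4 and 117 CPM (log2 fold change -1.93, SE 0.14, edgeR adjusted p = 7.79e-06). Sfrp1, a secreted WNT inhibitor, was at 385, 35.7, 327 and 109.6 CPM in Lgr5 3+ and 986, 1418, 1144 and 1053 CPM in Lgr5 0 cells. Sfrp1 in other Pdgfra+ cells was at 2235, 2059.9, 2124 and 1724 CPM (log2 fold change -2.44, SE 0.48, edgeR adjusted p = 0.00506 within the gate). Dkk2 was at 34.2, 11.9, 73.2 and 0 CPM in Lgr5 3+ and 104, 99.7, 396 and 289.8 CPM in Lgr5 0 cells. Dkk2 in other Pdgfra+ cells was at 430.4, 362, 659 and 628 CPM (log2 fold change -2.32, SE 0.35, edgeR adjusted p = 0.00122 within the gate). Lgr5 3+ cells thus had the lowest level of both inhibitors in every library, and 4 of 6 members of the list tested within the gate were lower there. With Lgr5 1+ in place of 3+ neither inhibitor was called within the gate (Sfrp1 -1.08, edgeR adjusted p = 0.129, and Dkk2 -0.99, edgeR adjusted p = 0.542).

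Some ligands of ErbB receptors rose in gated cells, and FGF genes moved both ways. Besides Nrg1, the gated cells had more Nrg2 (log2 fold change 4.62, SE 0.27, edgeR adjusted p = 3.99e-06), Btc (log2 fold change 1.26) and Ereg (0.82), which makes 4 of 9 ErbB ligands tested, with none lower (median log2 change 0.24). The Btc call was lost with Lgr5 3+ gated cells only (edgeR adjusted p = 0.665). The Ereg call was lost under most alternatives, among them without proximal replicate 1 (edgeR adjusted p = 0.215) or distal replicate 1 (0.213). Nrg2 was at 593, 506, 405 and 329 CPM in Lgr5 3+ and 189, 84.7, 159 and 106 CPM in Lgr5 0 cells (log2 fold change 1.89, SE 0.24, edgeR adjusted p = 0.000496). Fgf9 was at 262, 244, 166 and 137 CPM in Lgr5 3+ and 104, 23.9, 117 and 13.4 CPM in Lgr5 0 cells. Fgf9 in other Pdgfra+ cells was at 2.65, 2.71, 2.10 and 4.27 CPM (log2 fold change 4.66, SE 0.47, edgeR adjusted p = 4.26e-05 for gated against others). Fgf7, a growth factor for epithelium also called KGF, was at 462, 244, 752 and 1233 CPM in Lgr5 3+ and 12.1, 20.3, 60.4 and 18.8 CPM in Lgr5 0 cells (log2 fold change 4.55, SE 0.37, edgeR adjusted p = 7.30e-05). Fgf7 in other Pdgfra+ cells was at 46.1, 42.3, 36.4 and 29.1 CPM. Its rise in gated cells (log2 fold change 1.52, SE 0.38, edgeR adjusted p = 0.0194) was not seen in the Lgr5 0 cells alone, which were lower than the others by the test (log2 fold change -0.94, edgeR adjusted p = 0.00530) and in 3 of 4 libraries. The call was lost without proximal replicate 1 or distal replicate 1 (edgeR adjusted p = 0.0535 and 0.0677). Vegfa, which acts on blood vessels, was at 214, 422, 200.2 and 137 CPM in Lgr5 3+ and 83.0, 89.3, 60.4 and 56.3 CPM in Lgr5 0 cells. Vegfa in other Pdgfra+ cells was at 12, 20.9, 10.4 and 18.6 CPM (log2 fold change 2.73, SE 0.26, edgeR adjusted p = 2.94e-05 for gated against others). Igf1 was lower in Lgr5 3+ cells (65.6, 23.8, 39.1 and 27.4 against 185, 369, 151 and 292 CPM, log2 fold change -2.27, SE 0.36, edgeR adjusted p = 0.00163), a call lost with 3 of 5 completing genes (-1.65, edgeR adjusted p = 0.0807). Within the gate 3 of 12 genes of this list were higher and 3 lower.

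**Figure D4:**
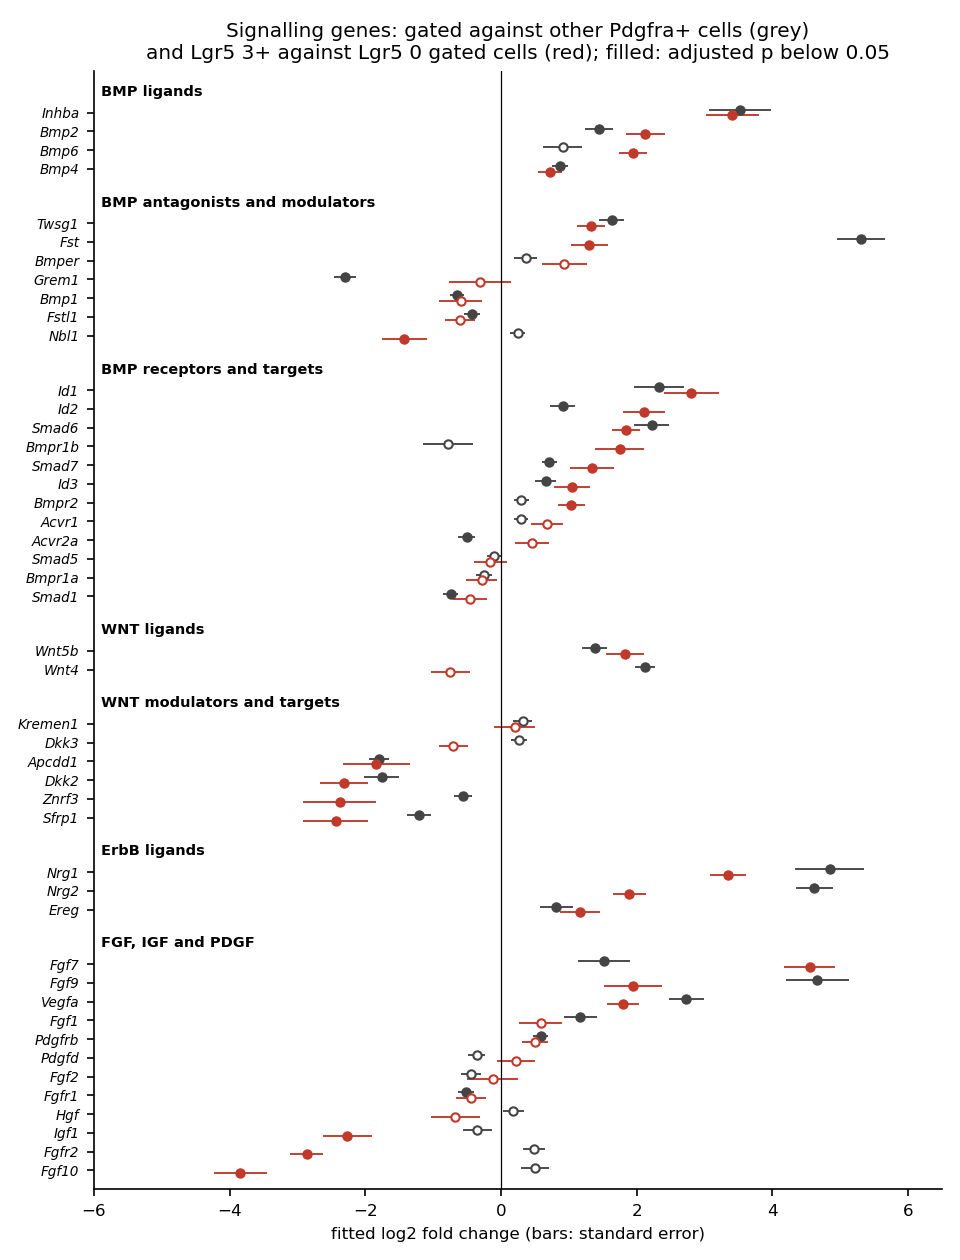
Fitted log2 fold changes with standard errors for the signaling genes that passed the filter on low counts in both comparisons. Grey points compare gated with other Pdgfra+ cells and red points Lgr5 3+ with Lgr5 0 gated cells, and filled points have an adjusted p below 0.05. Fgf7, Nrg1 and Inhba lie far to the right in red, Fst and Nrg1 in grey, and Fgf10 and Fgfr2 lie to the left in red alone.

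Among receptors for gut hormones and neuropeptides, Glp2r stood alone on the high side. Glp2r (chromosome 11, 67552328 to 67662461, minus strand), the receptor of the intestinal hormone GLP-2, was at 370.0, 90.0, 375 and 77.1 CPM in gated and 34.8, 38.4, 52.0 and 35.6 CPM in other Pdgfra+ cells (log2 fold change 2.06, SE 0.32, edgeR adjusted p = 0.000902). It was at 704, 446, 615 and 740.1 CPM in Lgr5 3+ and 147, 49.3, 169.9 and 48.3 CPM in Lgr5 0 cells (log2 fold change 2.78, SE 0.30, edgeR adjusted p = 0.000213). No Lgr5 0 library reached the lowest Lgr5 3+ library, and in the replicate 2 libraries the Lgr5 0 cells were near the level of the other cells. A Glp2r UMI was present in 84 of 92 Lgr5 3+ cells (91.3%), 94 of 262 Lgr5 0 cells (35.9%), 29.5% of other Pdgfra+ cells and 10.3% of leukocyte barcodes, and at 2500 UMIs per cell in 71.7%, 19.5%, 9.40% and 2.29%. Of the 8 receptors tested, Npy1r, Vipr2 and Igf1r were lower in gated cells, and 9 of the 17 listed did not pass the filter on low counts.

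Alarmins and chemokines moved both ways. Of 13 genes tested, Cxcl14, Ptgs1 and Ptgs2 were higher in gated cells and Il6, Il33, Ccl2, Il7 and Cxcl12 lower (median log2 change -0.07). The chemokine Cxcl14 was at 1300.4, 1041, 1978 and 2522 CPM in Lgr5 3+ and 687, 512, 491 and 579.6 CPM in Lgr5 0 cells. Cxcl14 in other Pdgfra+ cells was at 134, 127, 80.8 and 133 CPM (log2 fold change 2.63, SE 0.22, edgeR adjusted p = 1.38e-05 for gated against others). Ptgs2, the inducible cyclooxygenase, was at 202, 309, 352 and 521 CPM in Lgr5 3+ and 34.6, 28.6, 26.4 and 40.2 CPM in Lgr5 0 cells. Ptgs2 in other Pdgfra+ cells was at 16.6, 14.4, 15.3 and 15.4 CPM (log2 fold change 3.35, SE 0.25, edgeR adjusted p = 6.73e-05 within the gate). Both genes were highest in Lgr5 3+ cells in every library. Il33 was at 39.9, 44.6, 112 and 132 CPM in gated and 175, 193, 241 and 246 CPM in other cells (log2 fold change -1.68, SE 0.20, edgeR adjusted p = 0.000126). Ccl11, a chemokine for eosinophils, was at 59.9, 0, 63.5 and 0 CPM in Lgr5 3+ and 592, 1210.2, 366 and 427 CPM in Lgr5 0 cells (log2 fold change -3.85). Cxcl12, which attracts lymphocytes, was at 177, 71.4, 103 and 0 against 543, 626, 521 and 432 CPM (log2 fold change -2.35). Il33 (28.5, 0, 39.1 and 0 CPM in Lgr5 3+ against 53.6, 48.3, 169.9 and 121 CPM in Lgr5 0 cells) and Cxcl13 were lower in Lgr5 3+ cells as well, the former not without distal replicate 1 (edgeR adjusted p = 0.0998), without library in the model (0.0617) or with Lgr5 1+ (-0.72, edgeR adjusted p = 0.387).

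The transcripts that the sort rested on were rare in gated cells. Tslp was at 7.42, 1.36, 0 and 1.10 CPM in gated and 1.73, 0.717, 2.61 and 1.2 CPM in other Pdgfra+ cells. The reporter tdTomato was at 6.49, 0.455, 14.7 and 2.20 CPM in gated and 3.18, 1.42, 5.73 and 2.25 CPM in other cells. Neither was called (log2 fold changes 0.77 and 0.41, edgeR adjusted p = 0.525 and 0.670), and Tslp changed sign without proximal replicate 1. A tdTomato UMI was found in 15 of 387 gated cells (3.88%) and 2.96% of the others, and in 0 of 1048 leukocyte barcodes, which allows a share of up to 0.286% of barcodes with a UMI and sets no limit on the cells that carry the reporter. Tslp UMIs were in 9 gated cells, of which 6 were Lgr5 3+ (6.52% of them) and 2 Lgr5 0. Over all Lgr5 3+ cells there were 8 Tslp UMIs, 7 of them in proximal replicate 1, and none in either distal library. Compared with other Pdgfra+ cells in a fit of Lgr5 3+ cells alone, chosen after seeing the data, Tslp was called higher (log2 fold change 2.34, SE 0.81, edgeR adjusted p = 0.0281), which rests on these few UMIs.

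Genes of vitamin A metabolism were a feature of the Lgr5 0 cells. Within the gate 5 of 7 tested were lower in Lgr5 3+ cells and none higher (median log2 change -1.95), while gated and other cells differed in both directions, with 2 of 11 higher and 3 lower (median 0.04). The retinoic acid synthesizing enzyme Aldh1a3 was at 94.1, 196, 43.9 and 0 CPM in Lgr5 3+ and 597, 752, 332 and 439 CPM in Lgr5 0 cells (log2 fold change -2.52, SE 0.32, edgeR adjusted p = 0.000450). Lrat, which stores retinol as esters, was at 45.6, 17.9, 19.5 and 0 CPM against 330.5, 625, 121 and 306 CPM (log2 fold change -3.46, SE 0.40, edgeR adjusted p = 0.000293). Aldh1a2 and Rdh10 were lower too, by log2 fold changes of -2.51 and -1.45. The Lgr5 3+ cells lay below the Lgr5 0 cells in every library for each of these 4 genes.

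Basement membrane genes were more often higher than lower in gated cells, and interstitial matrix genes more often lower. Of 22 basement membrane genes tested, 10 were higher and 3 lower in gated cells (median log2 change 0.76), whereas of 14 interstitial matrix genes 2 were higher and 9 lower (median -0.75). Npnt (chromosome 3, 132587506 to 132656257, minus strand), which encodes nephronectin, a basement membrane ligand of integrins, was at 2039, 2136, 1607 and 987 CPM in Lgr5 3+ and 872, 211, 506 and 152 CPM in Lgr5 0 cells. Npnt in other Pdgfra+ cells was at 19.9, 16.0, 7.44 and 19.3 CPM (log2 fold change 5.22, SE 0.51, edgeR adjusted p = 3.59e-05 for gated against others). The laminin chain gene Lama5 was at 371, 375, 337 and 411 CPM in Lgr5 3+ and 77.9, 28.6, 90.6 and 57.7 CPM in Lgr5 0 cells. Lama5 in other Pdgfra+ cells was at 5.18, 4.03, 1.73 and 6.23 CPM (log2 fold change 4.70, SE 0.43, edgeR adjusted p = 2.21e-05). Col4a6 was at 274, 393, 522 and 439 CPM in Lgr5 3+ and 152, 69.6, 177 and 52.3 CPM in Lgr5 0 cells. Col4a6 in other Pdgfra+ cells was at 9.46, 6.66, 10.2 and 5.78 CPM (log2 fold change 4.17, SE 0.20, edgeR adjusted p = 1.09e-06). The order of the classes was the same in every library for these 3. Lama2, the laminin chain of mesenchymal cells, ran the other way, at 362, 107, 415 and 109.6 CPM in Lgr5 3+ and 1602, 1494, 2012 and 1123 CPM in Lgr5 0 cells. Lama2 in other Pdgfra+ cells was at 3349, 2843, 3477 and 2773 CPM (log2 fold change -2.66, SE 0.29, edgeR adjusted p = 0.000228 within the gate, but -1.02 and edgeR adjusted p = 0.345 with Lgr5 1+ in place of 3+). Decorin (Dcn) was at 1728, 125, 2486 and 137 CPM in Lgr5 3+ and 3862, 4041, 5107 and 3389 CPM in Lgr5 0 cells. Dcn in other Pdgfra+ cells was at 10504, 9587, 12039 and 7246 CPM (log2 fold change -1.59, SE 0.16, edgeR adjusted p = 5.30e-05 for gated against others). Fbln1 in gated cells fell by 2.08 on the log2 scale. Within the gate, 10 of 17 basement membrane genes were higher and 2 lower in Lgr5 3+ cells (median 0.74), and 9 of 14 interstitial genes were lower and none higher (median -1.07). The call of Dcn within the gate was lost without distal replicate 2 (edgeR adjusted p = 0.0665), after subtraction of free RNA (0.0595), without library in the model (0.105) and with Lgr5 1+ (0.239), while that against other cells was not lost under any alternative run.

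Immediate early and heat shock genes, which respond fast to stimuli and to tissue dissociation, were higher in Lgr5 3+ than in Lgr5 0 cells. Of 18 tested, 16 were higher in Lgr5 3+ than in Lgr5 0 cells and none lower (median log2 change 2.06). Fos was at 1126, 1851, 2388 and 905 CPM in Lgr5 3+ and 422, 222, 453 and 212 CPM in Lgr5 0 cells (log2 fold change 2.30, SE 0.26, edgeR adjusted p = 0.000273), with 1246, 1148, 1696 and 982 CPM in other Pdgfra+ cells. Egr1 was at 1417, 1309, 2256 and 2906 CPM in Lgr5 3+ and 640.2, 387, 683 and 449 CPM in Lgr5 0 cells. Egr1 in other Pdgfra+ cells was at 1675, 1615, 1974 and 1502 CPM (log2 fold change 1.86, SE 0.23, edgeR adjusted p = 0.000399 within the gate). For both genes Lgr5 3+ cells were near the other Pdgfra+ cells and Lgr5 0 cells below them. In gated cells as a whole, 13 of the 18 were lower than in others and none higher (median log2 change -0.97). In fits of 1 class alone, chosen after seeing the data, all 18 were lower in Lgr5 0 cells, while in Lgr5 3+ cells 3 were higher and 2 lower. Ier3, Fosb and Hspb1 exceeded the other Pdgfra+ cells in Lgr5 3+ cells, with Fosb at 824, 1083, 1431 and 1288 CPM against 129.8, 74.8, 52.8 and 139.5 CPM in Lgr5 0 and 407, 309, 457 and 334 CPM in other cells.

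**Figure D5:**
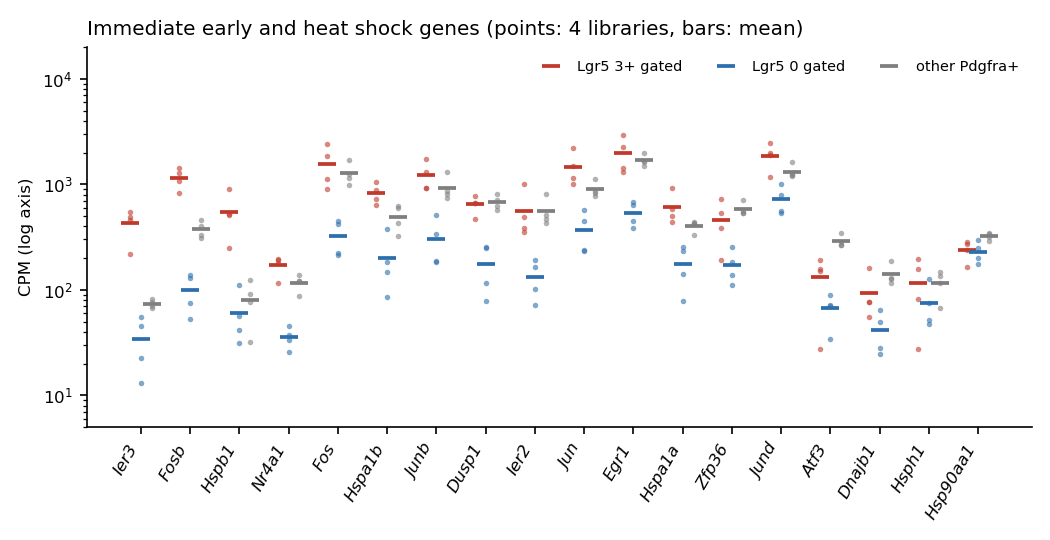
Levels of the 18 immediate early and heat shock genes in Lgr5 3+ gated, Lgr5 0 gated and other Pdgfra+ cells, on a logarithmic axis in CPM. Points are the 4 libraries and bars their means, and genes are ordered by whether and how strongly they rose in Lgr5 3+ over Lgr5 0 cells. The blue bars lie lowest for all genes, and the red bars lie near or above the grey ones in most.

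Calls within the gate depended on how the classes were drawn. With Lgr5 1+ in place of 3+, 17 of the 84 named genes fitted were no longer called, namely F3, Plat, Bmp4, Fst, Sfrp1, Dkk2, Ereg, Ptgs1, Il33, Lama2, Col14a1, Dcn, Plvap, Id3, Smad7, Slc7a11 and Mfap3l. With 3 of 5 completing genes 14 of 68 were no longer called, namely Sox6, F3, Bmp4, Fst, Nrg2, Ereg, Fgf9, Igf1, Ptgs1, Emcn, Plvap, Kdr, Id3 and Smad7, and Adamts18 turned.

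Markers of other cell types were checked in the same sums. All 6 trophocyte markers were lower in gated cells (median log2 change -1.98), with Cd34 at 79.7, 97.7, 143 and 129 CPM in gated and 328, 309, 389 and 283 CPM in other cells (log2 fold change -1.70, SE 0.15, edgeR adjusted p = 1.73e-05). Ackr4 was at 25.0, 22.3, 48.4 and 36.3 against 182, 116, 231 and 99.9 CPM (log2 fold change -2.38, SE 0.19, edgeR adjusted p = 1.12e-05). Universal fibroblast markers were lower in 3 of 4. Epithelial markers summed to 1.36 to 6.31 CPM in gated cells and 2.74 to 11.4 CPM in the others, with Krt19, Vil1 and Cdh1 at 0 in gated cells, and glial markers to at most 5.46 CPM. Of 4 epithelial stem cell genes, Olfm4 and Ascl2 had no UMI in gated cells, Cdca7 was higher there (log2 fold change 1.70, SE 0.27, edgeR adjusted p = 0.000969) and Slc12a2 lower (log2 fold change -0.96, SE 0.15, edgeR adjusted p = 0.00101), both calls lost with 3 of 5 completing genes (edgeR adjusted p = 0.133 and 0.111). Lymphatic markers were lower in 5 of 5, a list whose leading gene Prox1 had been used to remove cells. Lyve1 no longer differed against a stricter set of other cells (log2 fold change -0.02, edgeR adjusted p = 0.994). The cells of that set had at least 3 Pdgfra UMIs and, like gated cells, no UMI of Prox1, Ptprc and Myh11. Of the genes that fell most in gated cells by the naming rule, Apba2 (-4.85, and -2.23 against those cells), Has1 (-4.11), Ptn (-3.34) and Prlr (-3.08) stayed lower against those cells, while Gpm6a and Cldn5 lost the call as Lyve1 did and D5Ertd615e turned. Proliferation genes were higher in gated cells in 3 of 4 (Top2a log2 fold change 2.53, SE 0.37, edgeR adjusted p = 0.000605), with Top2a at 144, 21.8, 11.3 and 49.6 CPM in Lgr5 0 cells. With 3 of 5 completing genes Top2a (1.25, edgeR adjusted p = 0.304) and Mki67 (1.32, edgeR adjusted p = 0.383) lost the call. Top2a had no UMI in any Lgr5 3+ sum, which allows up to 8.55 to 82.2 CPM, and Mki67 had 1.

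Blood endothelial markers were higher in Lgr5 3+ than in Lgr5 0 cells. Of the 5 listed, Flt1, Plvap and Emcn passed the filter on low counts and then the test. Flt1 and Emcn needed their Lgr5 3+ sums to pass that filter, so the number called follows in part from the filter. Flt1, a VEGF receptor, was at 713, 1107, 752 and 548 CPM in Lgr5 3+ and 69.2, 5.71, 3.77 and 38.9 CPM in Lgr5 0 cells. Flt1 in other Pdgfra+ cells was at 43.8, 11.8, 11.2 and 19.7 CPM (log2 fold change 5.07, SE 0.63, edgeR adjusted p = 0.000410 within the gate). Plvap was at 559, 1178, 347 and 27.4 CPM in Lgr5 3+ and 189, 56.1, 86.8 and 77.8 CPM in Lgr5 0 cells (log2 fold change 2.37, SE 0.56, edgeR adjusted p = 0.0135). Emcn was at 125, 470.1, 19.5 and 54.8 against 38.1, 6.75, 11.3 and 21.5 CPM (log2 fold change 3.43, SE 0.76, edgeR adjusted p = 0.00964). The defining marker Pecam1 was at 106, 226, 48.8 and 0 CPM in Lgr5 3+ and 26.0, 8.31, 15.1 and 16.1 CPM in Lgr5 0 cells. Cdh5, the other, was at 62.7, 202, 29.3 and 0 against 31.1, 4.67, 11.3 and 10.7 CPM, and both were highest in the Lgr5 3+ cells of proximal replicate 2. Over the 5 markers the summed level ranged from 630.4 to 3184 CPM in Lgr5 3+, 81.5 to 353 CPM in Lgr5 0 and 80.4 to 253.7 CPM in other cells. Both Pecam1 and Cdh5 had UMIs in 9 of the 92 Lgr5 3+ cells. Of the 74 Lgr5 3+ cells with a Flt1 UMI, 63 had no UMI of either, and in distal replicate 2 all 5 cells had Flt1 with neither. In proximal replicate 2, 2 of the 14 Lgr5 3+ cells held 155 of the 186 Flt1 UMIs, all 38 Pecam1 UMIs and 37.4% of all UMIs of the sum. In the cells with neither Pecam1 nor Cdh5, Flt1 was at 419.8, 294 and 552 CPM in proximal replicate 1, proximal replicate 2 and distal replicate 1, and at 548 CPM in distal replicate 2, where no cell had either. With barcodes predicted as doublets removed the Flt1 change was 5.12 on the log2 scale (SE 0.55, edgeR adjusted p = 1.62e-05). Kdr, the other VEGF receptor, was also higher (log2 fold change 4.42, SE 0.76, edgeR adjusted p = 0.00232), with the levels 177, 417, 73.2 and 109.6 CPM highest again in proximal replicate 2. With 3 of 5 completing genes the calls of Emcn (edgeR adjusted p = 0.277), Plvap (0.110) and Kdr (0.0778) were lost, and with Lgr5 1+ in place of 3+ that of Plvap (0.115). What part endothelial RNA had in these values was not tested.

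No gene of 9861 tested differed between proximal and distal gated cells by edgeR (0%), with 285 at an unadjusted p under 0.05 and a smallest adjusted p of 0.193, while limma-voom called 0 and DESeq2 called 3. Without proximal replicate 2 the count was 83. Hox genes mark position along the gut. Hoxc8 was at 21.3, 13.2, 191 and 145 CPM (log2 fold change -3.33, edgeR adjusted p = 0.193). Hoxc6 was at 33.4, 28.2, 118 and 65.0 CPM, and both were lower in both proximal libraries. The other Pdgfra+ cells had the same pattern, with Hoxc8 at 16.1, 8.92, 94.7 and 97.2 CPM. Saa3, an acute phase protein, was at 8.35, 10.5, 71.5 and 120.0 CPM and the WNT inhibitor Dkk2 at 67.7, 88.2, 253 and 423 CPM, again lower in both proximal libraries without passing the test.

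The region effect of gated cells was then set against that of the other Pdgfra+ cells of the same libraries. By edgeR 59 of 19024 genes tested differed (0.31%), 28 of them with a higher proximal to distal ratio in gated cells and 31 with a lower one, whereas limma-voom and DESeq2 called 0. The count was 25 to 182 when 1 library was left out. Dkk2 was at 67.7, 88.2, 253 and 423 CPM in gated and 430.4, 362, 659 and 628 CPM in other cells, lower in both proximal libraries of each class (log2 fold change -1.34, SE 0.28, edgeR adjusted p = 0.00102). Il33 was at 39.9, 44.6, 112 and 132 CPM in gated and 175, 193, 241 and 246 CPM in other cells (log2 fold change -1.09, SE 0.28, edgeR adjusted p = 0.0328), a call lost without proximal replicate 1, proximal replicate 2 or distal replicate 2 (edgeR adjusted p = 0.756, 0.813 and 0.329). The call of Dkk2 was lost without proximal replicate 1 or distal replicate 2 (edgeR adjusted p = 1.00 and 0.481). Fgf7 was at 168, 39.6, 366 and 72.7 CPM in gated cells, highest in distal replicate 1, and 46.1, 42.3, 36.4 and 29.1 CPM in others (log2 fold change -1.43, SE 0.27, edgeR adjusted p = 0.000209). Lgr5 3+ cells, which had more Fgf7 and Inhba than Lgr5 0 cells, made up 39.3%, 9.93%, 50% and 6.67% of the gated cells of these libraries. What part this mix had in the region effect was not tested. Without proximal replicate 2 the calls of Fgf7 and Inhba were lost (edgeR adjusted p = 1.00 for each), and without distal replicate 1 the call of Fgf7 was lost and the Inhba value (log2 fold change -1.21, SE 0.30, edgeR adjusted p = 0.0216) turned to 0.19. Ccl21a and Reln, lymphatic endothelial genes among those with a lower ratio, were highest in distal replicate 1 among gated cells. Ccl21a was at 7.42, 11.8, 98.9 and 27.5 CPM in gated and 119.9, 201, 55.4 and 236 CPM in other cells. Reln was at 11.1, 16.4, 92.6 and 28.6 CPM against 187, 303, 59.3 and 397 CPM.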

How the data were processed

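Single cells were measured on the Chromium 3′ platform, and the deposited values were raw UMI counts per gene and barcode, made by the authors with Cell Ranger (8.1.0 in the submitters' processing notes, 8.0.1 in the matrix headers) on mm39 with the tdTomato sequence added. The deposited counts precede the authors' removal of doublets, free RNA and contaminant clusters with few tdTomato+ cells. Cell barcodes with 1000 to 7500 genes, 2500 to 40000 gene UMIs and under 10% mitochondrial UMIs were kept. Doublets were left in, no cluster was removed, and the gate was applied. The members and gene lists were chosen with earlier results of these data known.

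Counts were summed per library and class and tested with edgeR 4.0.16 (quasi-likelihood, TMM, a filter at a minimum count of 10, Benjamini-Hochberg adjustment, threshold 0.05) in R 4.3.3, with library as a term except between regions. limma 3.58.1 (voom) and DESeq2 1.42.0 were alternatives, as were other gates, left-out libraries, subtraction of 10% free RNA and removal of predicted doublets (scanpy 1.11.5) or barcodes with several hashtags. Tables and figures were made with pandas 2.3.3, matplotlib 3.10.9, scipy 1.17.1 and numpy 2.4.6 in Python 3.11.15. The main edgeR fit of each comparison was run on simulated data, and the alternatives were not. Gene positions are from the GRCm39 annotation. Intervals and floors of 3 counts cover counting error only. Named genes were list members and, per comparison, up to 12 genes per direction (8 for regions) with the largest change past the threshold. The latter needed a mean of at least 20 CPM in the higher class or region. Between classes they also had to change the same way in every library, and for regions the libraries could not overlap. A few list members and named genes are not reported here.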

Additional observations from a re-analysis of the deposited data

Results flagged for a closer look

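Of 166 differences checked, of gated from other cells or of Lgr5 3+ from Lgr5 0 cells, 8 had 1 library far from the other 3 (by Dixon's test of its gap over the range), and chance alone gives about 1 in 20. All 8 were between Lgr5 3+ and Lgr5 0 cells. The difference in log2(CPM + 1) was 0.69 for Foxf1 in proximal replicate 1, -8.29 for Nbl1, 2.74 for Wnt5b and -8.78 for Aldh1a3 in distal replicate 2, where 5 Lgr5 3+ cells were summed. It was -2.76 for Lama4, 3.78 for Cdhr17 and -6.97 for Sntg1 in distal replicate 1, and 7.68 for Kdr in proximal replicate 2. Nbl1, Aldh1a3 and Sntg1 had no UMI in the Lgr5 3+ sum concerned, so their values depend on the offset of 1 and are no bound.

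The region effect differed between gated and other Pdgfra+ cells for 59 genes by the edgeR interaction. The fitted differences were -1.34 for Dkk2, -1.43 for Fgf7, -1.09 for Il33 and -1.21 for Inhba among list members. They were 4.61 for Kcnq5, 4.28 for Sorbs2, 3.69 for Mecom, 2.63 for Myocd, 2.52 for Lims2, 2.33 for Cd74 and 2.31 for Mctp1 on the high side. On the low side they were -2.95 for Ccl21a, -2.55 for Reln, -2.13 for Grm7, -2.0 for Mmrn1, -1.58 for Saa3, -1.55 for Adh1 and -1.47 for Srgap3. The value of 12.76 for Cd36, which had no UMI in distal gated cells, depends on the prior count and is no bound.

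The same gate held 505 barcodes of the cecum (3.62% of those kept) and 1649 of the large intestine (14.0%), each a single library. Lgr5 had 3 or more UMIs in 2.57% and 1.27% of them.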

How the results depend on the processing

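Counts of genes that gated and other cells differed by stayed within 1.5 times under every alternative run, at 1933 to 2585 with 1 library left out. The genes called changed more than their number. Of the 2639 calls, limma-voom shared 1838 and the fit of Lgr5 3+ gated cells only shared 1669. In that fit 183 of the calls turned direction, and 64 did with the other cells limited to Pdgfra 3+ and no UMI of Prox1, Ptprc and Myh11. Within the gate the count of 922 was 663 to 886 with 1 library left out, 378 when 3 of the 5 completing genes were required and 449 with Lgr5 1+ in place of 3+. Between regions the count of 0 was 3 by DESeq2, 130 with no filter on low counts, 3 with 3 of 5 completing genes, 2 in Lgr5 0 cells only and 0 to 83 with 1 library left out. The interaction count of 59 was 0 by limma-voom and by DESeq2, 6 after subtraction of free RNA, 100 without barcodes of several hashtags and 25 to 182 with 1 library left out. The difference in share of gated cells was 0.363 to 0.478 points with 1 library left out, 0.163 after thinning, 0.184 with 3 of 5 completing genes and 0.659 over barcodes with Pdgfra, and that of Lgr5 3+ cells was -25.4 to 17.96, and 3.76 after thinning.

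The labels do not say what libraries of 1 replicate number share. Same-numbered libraries deviated together from the means of their regions (r = 0.386 across 9868 genes, 1 value for both of the 2 pairs by construction), and with the number as a replicate block the count between regions was 121, with 66 higher proximally. Among named genes, direction turned, against other cells, for Fgf7 in Lgr5 0 cells only (-0.94). In Lgr5 3+ cells only it turned for Mki67, Top2a, Cdca7 and Fos (-1.36, -11.51, -0.69 and 0.033, the first pair from 1 and 0 UMIs, so that no direction can be read). It turned for Tslp without proximal replicate 1 (-0.17, up to 1.18 without distal replicate 1) or in Lgr5 0 cells (-0.61), and for tdTomato without predicted doublets (-0.0078) or in Lgr5 0 cells (-0.80). For D5Ertd615e it turned against other cells with Pdgfra 3+ and no UMI of Prox1, Ptprc and Myh11 (0.062). Within the gate it turned for Adamts18 with 3 of 5 completing genes (-0.34) and for 2 genes without a call, Grem1 without barcodes of several hashtags (0.12), with Lgr5 1+ (0.36) or in replicate 1 libraries only (0.50), and Tmem132d in replicate 1 libraries only (-0.60). With 1 library left out these ranged from -1.03 to 0.39 for Grem1 and from -0.63 to 0.75 for Tmem132d. In the interaction it turned for Inhba without distal replicate 1 (0.19, down to -2.47 without distal replicate 2) and, with 3 of 5 completing genes, for Reln (0.15) and Saa3 (1.95). The cause was not tested, and the fits of 1 Lgr5 class or replicate number alone were chosen after seeing the data. The 36482 UMIs of Lgr5 3+ cells in distal replicate 2 limit what could be detected there.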

Other observations

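Hedgehog genes moved both ways in gated cells, with 3 of 12 higher and 4 lower than in other Pdgfra+ cells by edgeR (median log2 change -0.40). Ptch1, the Hedgehog receptor and a target of the pathway, was at 1009.9, 1395, 671 and 761 CPM in gated and 237, 355, 176 and 311 CPM in other cells (log2 fold change 1.69, SE 0.14, edgeR adjusted p = 1.33e-05). The co-receptors Boc, Cdon and Gas1 and the inhibitor Hhip were lower. Of 12 Notch genes, Dll1 and Jag1, which encode ligands, were higher and the receptor gene Notch3 was lower (median -0.19). Dll1 was at 59.9, 113, 43.9 and 137 CPM in Lgr5 3+, 22.5, 41.6, 34.0 and 40.2 CPM in Lgr5 0 and 11.6, 15.7, 8.77 and 16.8 CPM in other cells (log2 fold change 1.54, SE 0.16, edgeR adjusted p = 4.75e-05 for gated against others).

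Contractile genes were higher in 4 of 8 and lower in 2, with Des, the muscle intermediate filament gene, at 208, 232, 97.7 and 27.4 CPM in Lgr5 3+, 100.3, 44.7, 37.7 and 47.0 CPM in Lgr5 0 and 25.1, 23.0, 15.2 and 28.3 CPM in other cells (log2 fold change 1.56, SE 0.24, edgeR adjusted p = 0.000960). Acta2, the smooth muscle actin gene, was at 34.2, 59.5, 83.0 and 0 CPM in Lgr5 3+ and 303, 252, 189 and 298 CPM in Lgr5 0 cells (log2 fold change -2.24, SE 0.37, edgeR adjusted p = 0.00193). Myh11 had been excluded by the gate. Of the remaining marker lists, pericyte genes were higher in 1 of 6 and lower in 2, immune genes lower in 2 of 5, Paneth cell genes lower in 2 of 4, and genes of interstitial cells of the muscle layers higher in 1 of 4 and lower in 1. The single mesothelial gene tested gave no call.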
